A study of Gallus gallus with 21 samples.

Results

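The comparison described here set the cerebrum of hens of 3 and 5 years (Y3 and Y5, together the older hens) against that of hens of 1 year (Y1), in a study of lncRNA and mRNA expression over the life of the chicken. Members were chosen by stage alone: the 2 Y3 libraries and the 2 Y5 libraries against the 3 Y1 libraries, 7 of the 21 libraries of the series. All 7 came from female Tibetan chickens with no treatment named, each library from 1 bird. By the sample labels, hens of all 3 ages were obtained in Lhasa, while the methods of the study name only a farm at Ya'an for the housing of hatched birds. Frozen cerebrum was used for total RNA, and libraries depleted of ribosomal RNA were sequenced as paired reads. The value columns of Y3 and Y5 carry other numbers than the sample labels, so their hens are called a and b here, while Y1 hens keep the numbers 1 to 3. Y3 and Y5 each rest on 2 birds, and hens of different ages were different birds, so age cannot be told apart from other differences between flocks or hatching years.

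The cerebrum of birds holds the pallium and striatum, the seat of learning, memory and complex behaviour. In the ageing mammalian brain, transcripts of glia and of immune cells are known to rise and those of synapses to fall, while neurons are largely kept through adult life. LncRNAs are long transcripts that are not translated, and many are found in few tissues or stages. In bulk cerebrum, fewer cells of a type and less RNA per cell cannot be told apart. The files name mRNAs by Ensembl identifier and lncRNAs by the TU identifier of the study, and 0 of 14558 mRNA identifiers could be paired with a gene symbol here. Roles of the genes are therefore not given, and the markers of brain cell types by which the label cerebrum could have been checked were not read.

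Levels are given as log2(FPKM+1), FPKM being fragments sequenced per transcript length and library size, and differences are the older mean minus the Y1 mean on that scale. The supplement of the study lists the reads of each library and the share of them that aligned. By that list, the share was highest in both Y5 libraries and lowest in those of Y1 hens 1 and 2. Its part in the differences was not tested. Read counts per feature are not part of the files, so the depth behind each value is unknown. Y3 hens had a value for 13837 (a) and 18053 (b) lncRNAs and Y5 hens for 17315 and 16590, against 19227, 16439 and 12618 in Y1 hens 1 to 3. The means were 16449 ± 1841 in older hens (SD, n = 4) and 16095 ± 3318 in Y1 hens (SD, n = 3), with an exact two-sided permutation p of 0.857. With 4 against 3 birds such a test can give no p below 0.0571. A single mRNA held 18.6% to 30.3% of the summed mRNA FPKM in older hens and 25.6% to 37.9% in Y1 hens. Pearson's r between the mRNA levels of 2 hens of the same age was 0.981 for Y5 and 0.935 for Y3, against 0.945 to 0.984 for Y1. Y3 hen a was closer to Y1 hens 1 and 2 (0.953 and 0.95) than to Y3 hen b, but not to Y1 hen 3 (0.925). Y3 hen b was closer to Y5 hens a and b (0.946 and 0.947) and to Y1 hen 1 (0.948) than to Y3 hen a.

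Of 14558 mRNAs, 72 were up-regulated and 56 down-regulated in older hens (limma, all 18 libraries analysed in the fit, fold of at least 2 and Benjamini-Hochberg adjusted p of at most 0.05). These are 0.495% and 0.385% of the mRNAs tested. The median difference was 1.40 among the 72 up-regulated and -1.36 among the 56 down-regulated mRNAs, against -0.01 over all mRNAs. All 4 older hens lay above all 3 Y1 hens in 48 of the 72, and below them in 52 of the 56. Over all mRNAs and without a limit on size, 991 (6.81%) lay wholly above and 1172 (8.05%) wholly below. The counts depended on single birds. Up-regulated mRNAs numbered 20, 12, 33, 15 and 22 without Y1 hen 1, Y1 hen 2, Y3 hen b, Y5 hen a and Y5 hen b, and 142 without Y3 hen a. Down-regulated mRNAs numbered 8, 0, 37, 11 and 9 without Y1 hens 1, 2 and 3 and Y5 hens a and b, and 92 without Y3 hen a; where the limma count was 0, 174 mRNAs had an unadjusted p of at most 0.05 and a fold of at least 2. Only 9 of the 72 and 0 of the 56 stayed called throughout, that is, in all 7 leave-outs.

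A change was taken as present at both older ages where Y3 and Y5 each differed from Y1 by at least 1 in the direction of the call. It was taken as driven by a single age where only that age reached 1 and Y5 and Y3 also differed from each other past the same threshold. Of the 72 up-regulated mRNAs, 28 (38.9%) were raised at both ages, 19 (26.4%) were driven by Y5, 1 was driven by Y3 and 24 could not be assigned. Of the 56 down-regulated mRNAs, 35 (62.5%) were lowered at both ages, 1 was driven by Y5, 1 by Y3 and 19 could not be assigned. Of the mRNAs not assigned, 21 up-regulated and 15 down-regulated reached 1 at Y5 alone, and 3 and 4 at Y3 alone, without a called difference between Y5 and Y3. These words rest on the size of the mean differences: only 2 mRNAs were called at Y3 and at Y5 when each age was set against Y1 by itself. An average over both ages favours features that moved at both, so these shares are shares of the calls and not of all changes with age. The count of 63 mRNAs changed at both ages became 18, 6, 36, 14 and 15 without Y1 hen 1, Y1 hen 2, Y3 hen b, Y5 hen a and Y5 hen b, and 148 without Y3 hen a.

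**Figure D1:**
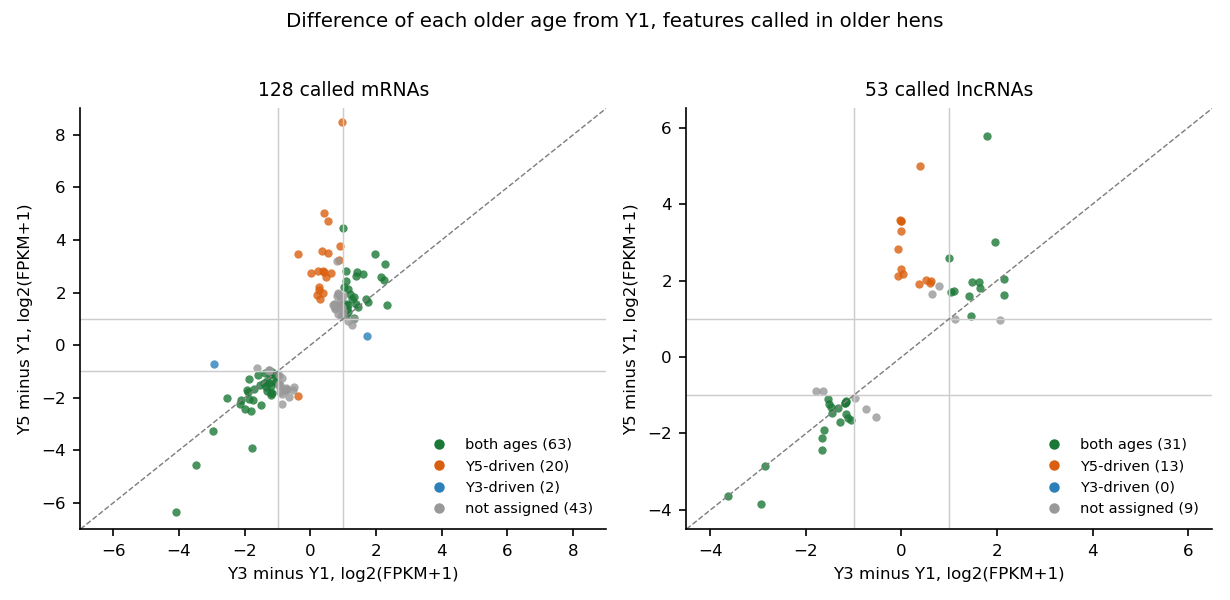
Each point is a feature called in older hens, with its Y3 minus Y1 difference on the horizontal axis and its Y5 minus Y1 difference on the vertical axis, both in log2(FPKM+1). Grey lines mark differences of -1 and 1 and the dashed line equal differences. Y5-driven features (20 mRNAs, 13 lncRNAs) have Y3 differences smaller than 1 in size, and all but 1 of them were higher in older hens. Features changed at both ages (63 mRNAs, 31 lncRNAs) lie past the grey lines on both axes.

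Among the mRNAs raised at both ages, ENSGALG00000010983 on chromosome 2 had 5.68 and 7.11 in Y3 hens and 7.88 and 7.92 in Y5 hens, against 3.99, 4.39 and 4.93 in Y1 hens. Every older hen was above every Y1 hen, and Y3 hen a was the lowest of the 4. The means were 7.15 ± 1.04 in older hens and 4.44 ± 0.473 in Y1 hens (SD, n = 4 and 3), and the difference was 2.71 ± 0.61 (SE; limma adjusted p = 0.0457). It was called at Y5 (3.46, adjusted p = 0.0214) and not at Y3 (1.96, adjusted p = 0.427) when each age was set against Y1 by itself with limma. The call was lost without any single Y1 hen, Y3 hen b or either Y5 hen, with limma adjusted p between 0.0651 and 0.203. Earlier stage means were 6.15 at E12, 5.20 at E16, 6.40 at E20 and 6.53 at D100, all above every Y1 hen. Y1 thus held the lowest of the stage means, and the Y3 mean of 6.40 was no higher than that of D100.

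ENSGALG00000013294 on chromosome 10 had 2.69 and 3.39 in Y3 hens and 3.75 and 3.93 in Y5 hens, against 0.77, 0.53 and 1.00 in Y1 hens. The groups did not overlap, and Y3 hen a was again the lowest of the older hens. The difference was 2.67 ± 0.33 (SE; limma adjusted p = 0.0037), a 6.37-fold change on the FPKM+1 scale. It was the steadiest of the mRNAs named for both ages: the call held when any of the 7 hens was left out, the limma adjusted p then being at most 0.0253. At Y3 by itself the difference was 2.27 (adjusted p = 0.0614), at Y5 3.07 (adjusted p = 0.001), both by limma. Before adulthood its stage means were 0.91 at E12, 1.08 at E16, 1.57 at E20 and 1.23 at D100, all below every older hen.

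The deepest fall was that of ENSGALG00000026383 on chromosome 1. Its level was 4.0 and 4.31 in Y3 hens and 3.38 and 0.35 in Y5 hens, against 8.07, 8.18 and 8.45 in Y1 hens. The Y1 hens lay close together, and the older hens were spread over a wide range, with Y5 hen b lowest. The difference was -5.22 ± 1.03 (SE; limma adjusted p = 0.0257), and the call was lost without any single Y1 hen, Y3 hen b or Y5 hen b, with limma adjusted p between 0.0605 and 0.134. Earlier stage means were 5.77 at E12, 6.49 at E16, 4.06 at E20 and 3.56 at D100, so Y1 held the highest of the 7 stage means.

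ENSGALG00000040463 on chromosome 15 had 2.85 and 4.33 in Y3 hens and 2.07 and 2.99 in Y5 hens, against 7.10, 7.33 and 6.83 in Y1 hens. The older hens did not reach the Y1 range. The difference was -4.03 ± 0.89 (SE; limma adjusted p = 0.0416), and with any 1 of the 7 hens left out the limma adjusted p rose to between 0.0634 and 0.201. In a limma fit of the 7 adult hens alone with 3 stage means, its adjusted p was 0.0095. Its stage means before adulthood, 2.36 at E12, 1.85 at E16, 2.92 at E20 and 3.26 at D100, were all below every Y1 hen, and all but that of E16 lay within the range of the older hens.

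The largest rise of any called mRNA belonged to a Y5-driven one. ENSGALG00000006236 on chromosome 5 had 0.89 and 2.74 in Y3 hens and 9.35 and 9.32 in Y5 hens, against 0.49, 0.36 and 1.71 in Y1 hens. Both Y5 hens stood far above all others, and Y3 hen a lay within the Y1 range. Y5 minus Y1 was 8.48 ± 0.47 (SE; limma adjusted p = 1.16e-07) and Y5 minus Y3 was 7.52 ± 0.52 (SE; limma adjusted p = 2.62e-06), while Y3 minus Y1 was 0.96 (limma adjusted p = 0.555). The call of the 2 ages together (4.72 ± 0.39, SE; limma adjusted p = 4.31e-05) held with any of the 7 hens left out. All earlier stage means were low, at 2.03 at E12, 1.19 at E16, 1.20 at E20 and 0.20 at D100.

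ENSGALG00000004514 on chromosome 18 followed the same course, with 2.89 and 1.61 in Y3 hens and 6.87 and 6.81 in Y5 hens, against 1.94, 2.05 and 1.49 in Y1 hens. Y3 and Y1 hens overlapped and the Y5 hens did not. Y5 minus Y3 was 4.59 ± 0.65 (SE; limma adjusted p = 0.0059), and the call of the 2 ages together (2.72, limma adjusted p = 0.0216) was lost without any single Y1 hen or either Y5 hen, with limma adjusted p between 0.0523 and 0.104. The only fall driven by Y5 was ENSGALG00000030868 on an unplaced scaffold, with 2.15 and 1.93 in Y3 hens and 0.54 and 0.41 in Y5 hens, against 2.43, 2.51 and 2.29 in Y1 hens. The older hens all lay below the Y1 hens, those of Y3 by a small margin. Y5 minus Y3 was -1.57 ± 0.31 (SE; limma adjusted p = 0.0323). The call of the 2 ages together (-1.15, limma adjusted p = 0.031) was kept only without Y3 hen a, and in the other 6 leave-outs limma adjusted p was between 0.0518 and 0.168.

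Only 2 mRNAs were driven by Y3. ENSGALG00000027959 on chromosome 19 had 3.23 and 2.84 in Y3 hens and 5.29 and 5.20 in Y5 hens, against 5.98, 6.19 and 5.70 in Y1 hens. It was lowest in both Y3 hens, and the Y5 hens lay between them and the Y1 hens. Y3 minus Y1 was -2.93 ± 0.40 (SE; limma adjusted p = 0.0321), Y5 minus Y1 was -0.71 (limma adjusted p = 0.331) and Y5 minus Y3 was 2.21 (limma adjusted p = 0.0325). ENSGALG00000030344 on chromosome 28 had 6.51 and 6.55 in Y3 hens and 5.11 and 5.23 in Y5 hens, against 4.88, 5.11 and 4.46 in Y1 hens. Here the Y3 hens were highest and Y5 hen a lay within the Y1 range. Y3 minus Y1 was 1.71 ± 0.26 (SE; limma adjusted p = 0.0496) and Y5 minus Y3 was -1.36 (limma adjusted p = 0.0416). The call of the 2 ages together was lost without Y1 hen 1 or 2, Y3 hen b or either Y5 hen for ENSGALG00000027959 (limma adjusted p 0.0605 to 0.134) and in all leave-outs except that of Y3 hen a for ENSGALG00000030344 (0.0867 to 0.131).

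**Figure D2:**
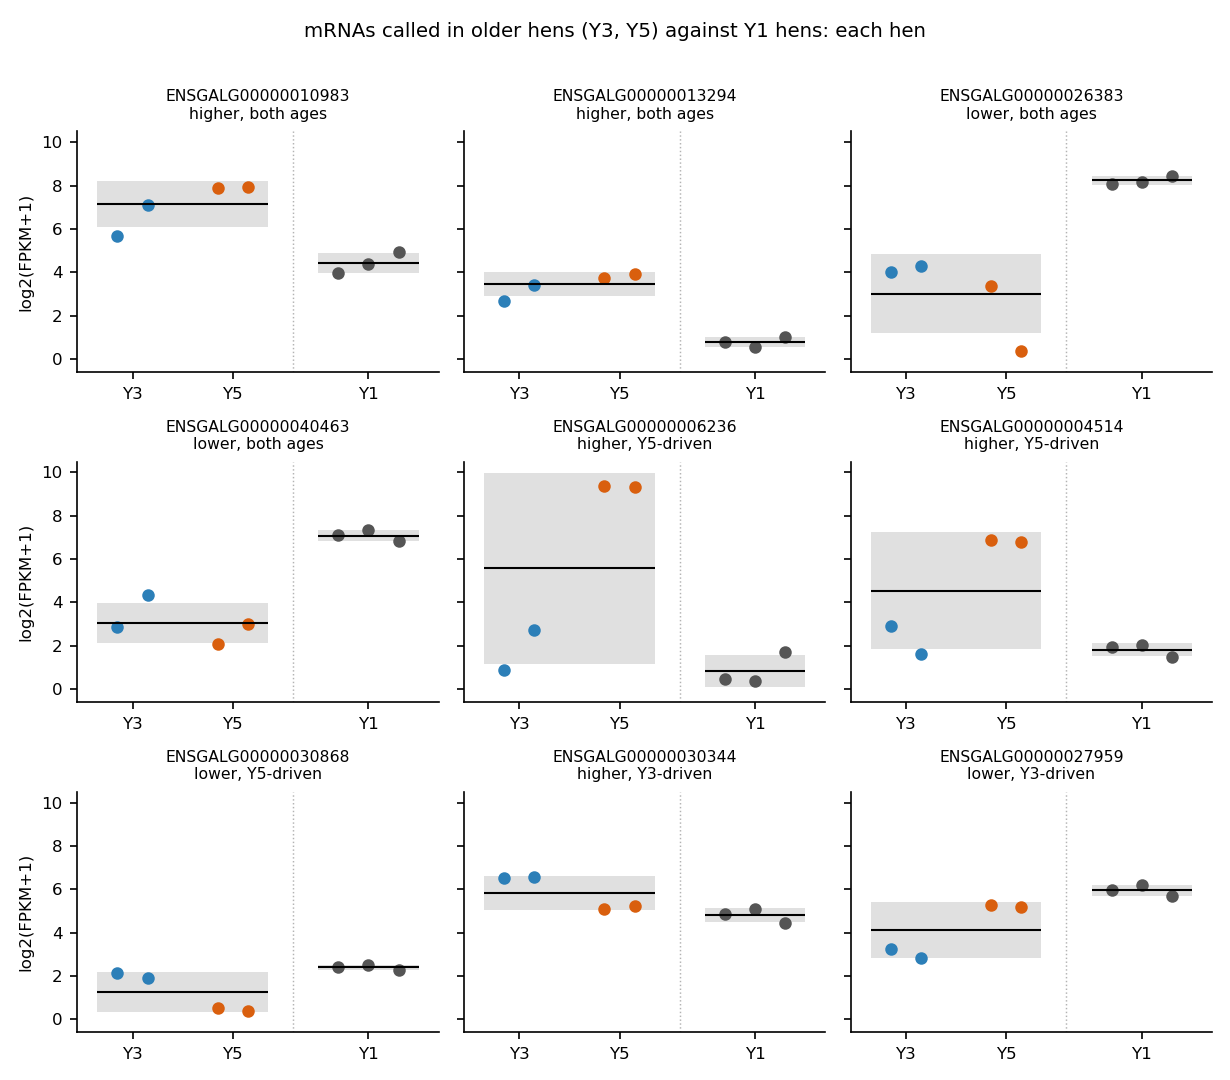
Each panel shows log2(FPKM+1) of an mRNA in the 2 Y3 hens (a, then b), the 2 Y5 hens (a, then b) and Y1 hens 1 to 3, with a line and a band for the mean and SD of the 4 older hens and of the 3 Y1 hens. ENSGALG00000006236 reached 9.35 and 9.32 in Y5 hens alone, and ENSGALG00000027959 was lowest in the Y3 hens.

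Set against Y1 by itself, Y5 had many more called mRNAs than Y3. At Y5, 252 mRNAs were up-regulated (1.73%) and 139 down-regulated (0.955%). At Y3, 3 were up-regulated (0.0206%) and 4 down-regulated (0.0275%). Both comparisons use the same Y1 hens. The size of the gap depends on the adjustment. At an unadjusted limma p of at most 0.05 and the same fold, Y5 had 615 mRNAs up and 444 down. Y3 then had 158 up and 194 down. Of the 391 mRNAs called at Y5, 113 (28.9%) were also called for the 2 ages together, and of the 7 called at Y3, 6 were. Between the 2 older ages, 76 mRNAs were higher in Y5 than in Y3 (0.522%) and 30 were lower (0.206%), so Y5 and Y3 themselves differed in 106 mRNAs. The median distance between the hens of an age, over all mRNAs, was 0.181 for Y5 and 0.354 for Y3.

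The Y3 hens differed from each other in how far they stood from Y1. Among the 72 mRNAs up-regulated in older hens, Y5 hens a and b were above all Y1 hens in 71 and 72, Y3 hen b in 67 and Y3 hen a in 51. Y3 hen b was the higher Y3 hen in 58 of the 72. Among the 56 down-regulated mRNAs, the hens lay below all Y1 hens in 56 and 56 (Y5), 55 (Y3 hen b) and 52 (Y3 hen a), and Y3 hen b was the lower Y3 hen in 31. All of these hens entered the calls, so the counts are largely set by that choice. Shares of single hens over all mRNAs were not counted. The same order was found over mRNAs chosen by Y5 minus Y1, a difference of means that leaves out the Y3 hens. Over the 252 mRNAs up-regulated at Y5, each hen was placed on a scale on which the Y1 mean is 0 and the Y5 mean is 1. Y3 hen b had a median place of 0.42 and was nearer to Y5 than to Y1 in 103 (40.9%), and Y3 hen a had a median place of 0.10 and was nearer to Y5 in 36 (14.3%). Over the 139 down-regulated at Y5, the median places were 0.47 for Y3 hen b and 0.29 for Y3 hen a. The Y1 and Y5 hens chose these mRNAs, so a place between them is partly set by the choice. The mRNAs not called at Y5 showed the same order of the hens, with median places of 0.48 for Y3 hen b and 0.16 for Y3 hen a, so the order is not particular to the called mRNAs. Among those not called, Y3 hen b was nearer to Y5 in 49.0% and Y3 hen a in 39.0%. Both shares were higher than among the 252 mRNAs up-regulated at Y5.

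**Figure D3:**
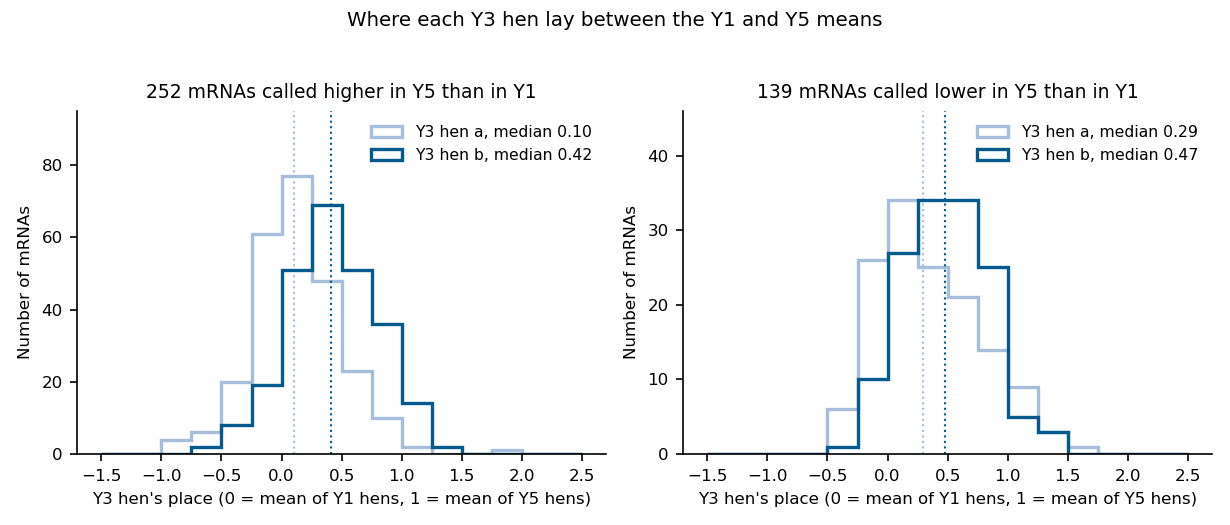
Histograms of the place of each Y3 hen between the Y1 mean (0) and the Y5 mean (1) over mRNAs called at Y5 against Y1, with the number of mRNAs on the vertical axis and dotted lines at the medians. Y3 hen b lies farther toward Y5 than Y3 hen a, with medians of 0.42 and 0.10 for up-regulated and 0.47 and 0.29 for down-regulated mRNAs.

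The mitochondrial genome codes for subunits of the respiratory chain and for RNAs, among them those of its own ribosomes. No symbols were matched, so the kinds of feature listed on this genome were not told apart. The 30 features listed on it held 1.52% (a) and 4.10% (b) of the summed mRNA FPKM in Y3 hens and 4.35% and 5.62% in Y5 hens, against 2.56%, 1.75% and 1.58% in Y1 hens. Y3 hen b and both Y5 hens were above all Y1 hens, and Y3 hen a was below them. The means were 3.90 ± 1.72% in older hens and 1.96 ± 0.522% in Y1 hens (SD, n = 4 and 3; exact two-sided permutation p = 0.229, 2 such measures tested). The median difference of the 30 features from Y1 was -0.09 at Y3 and 1.41 at Y5, and 0 were called for the 2 ages together by limma, with 3 at an unadjusted p of at most 0.05. Over all mRNAs, 0.879% were called in either direction and 16.0% had such a p. At Y5 by itself, 1 of the 30 features was called higher than in Y1 and 1 lower, against 1.73% and 0.955% of all mRNAs. As among the up-regulated mRNAs, Y3 hen b stood nearer to the Y5 hens than Y3 hen a did. The part of the mitochondrial share in the mRNA differences was not tested.

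The called mRNAs were spread over the genome (Gallus_gallus-5.0). Chromosome 5 held 11 of the 72 up-regulated mRNAs (15.3%, against 5.91% of the mRNAs tested) and 2 of the 56 down-regulated. Chromosome 3 held 10 and 2 (13.9% and 3.57%, against 7.56% of the mRNAs tested), and chromosome 1 held 8 and 9 (11.1% and 16.1%, against 12.7%). On chromosomes 1 to 5 and Z, the large chromosomes, 44 mRNAs were up-regulated and 16 down-regulated of 6602. On the small, gene-dense chromosomes 11 to 33, 17 were up-regulated and 25 down-regulated of 4522. The median difference followed the same split, at 0.04 on the large chromosomes, -0.05 on the small ones and -0.17 over 1170 mRNAs on unplaced scaffolds. These chromosome classes were formed after the values had been seen, and no test was made. Measured from the mean of the 7 hens, the median over the small chromosomes was -0.02 and 0.01 in Y3 hens and -0.05 and -0.03 in Y5 hens, against 0.05, 0.08 and -0.03 in Y1 hens, so the groups overlapped. Of the sex chromosomes of birds, Z had 640 mRNAs with 3 up-regulated and 1 down-regulated, and W had 37 with 0 called by limma and 4 at an unadjusted p of at most 0.05, which 16.0% of all mRNAs had. Chromosome 16, which carries the major histocompatibility complex, had 29 mRNAs. Of these 20 (69.0%) were below Y1, against 50.6% of all mRNAs, and the median difference was -0.33. By limma 0 were called, with 7 at an unadjusted p of at most 0.05. Such a share was not particular to chromosome 16. Higher shares below Y1 were found on, among others, the small chromosomes 33 (72.4%) and 25 (71.2%), with median differences of -0.22 and -0.13. The lowest share among the small chromosomes was 47.3%, on chromosome 11. Chromosome 16 was named after its values had been seen.

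Earlier stages show where the Y1 level itself stood. The up-regulated mRNAs had a median level of 3.05 at Y3 and 4.24 at Y5, against 1.92 at Y1, and their medians were 2.85 at E12, 2.29 at E16, 2.25 at E20 and 2.45 at D100. In 40 of the 72, Y1 was below all 4 of these earlier stage means, and in 49 the older mean was above all 4. The down-regulated mRNAs had medians of 2.71 at Y3 and 2.45 at Y5, against 4.02 at Y1, and of 2.76, 3.53, 3.58 and 3.27 at E12, E16, E20 and D100. In 30 of the 56, Y1 was above all 4 earlier stage means, and in 35 the D100 mean was nearer to that of the older hens than to that of Y1. Among the up-regulated mRNAs, the D100 mean was nearer to that of the older hens in 23 of the 72. Over all mRNAs the median level stayed between 3.37 and 3.54 across the 7 stages. Over all mRNAs Y1 was below all 4 earlier stage means in 17.9% and above them in 24.2%, and the older mean was above them in 24.8%. The D100 mean was nearer to the older mean than to the Y1 mean in 44.5% of all mRNAs. The choice of members rests on the Y1 and older values, which partly sets these counts, and they are a description. By the labels the D100 birds were raised on a farm at Ya'an and the hens of 1 year and over came from Lhasa, so age and place cannot be told apart between them.

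**Figure D4:**
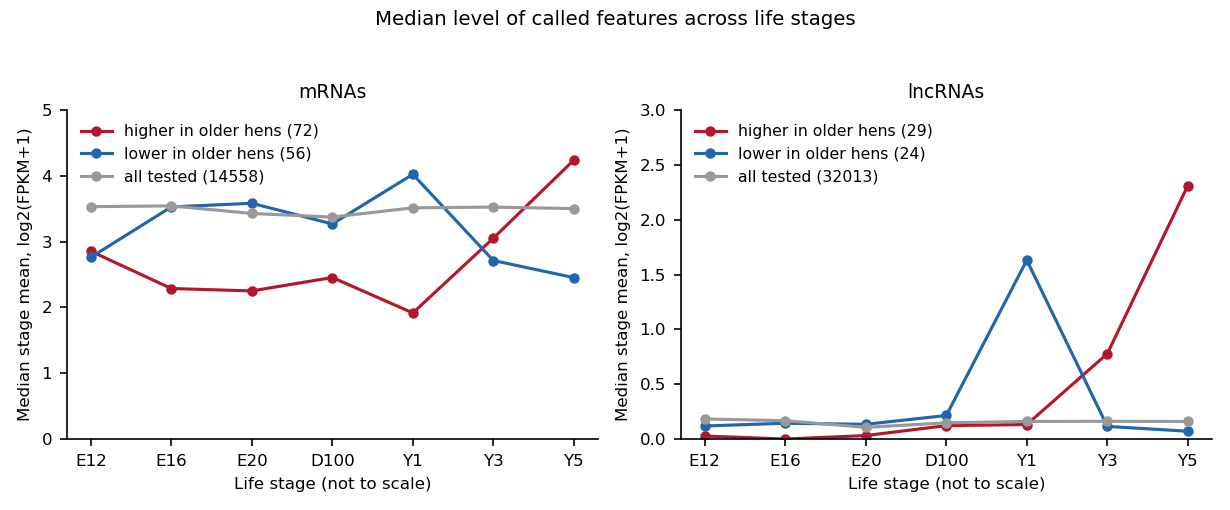
Median over features of the stage mean in log2(FPKM+1) at the 7 stages analysed, for features higher in older hens, lower in older hens and all features tested, with mRNAs on the left and lncRNAs on the right. Features lower in older hens peak at Y1 (4.02 for mRNAs, 1.63 for lncRNAs) and features higher in older hens are highest at Y5 (4.24 and 2.31).

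Of 32013 lncRNAs with a value in at least 2 libraries, 29 were up-regulated (0.0906%) and 24 down-regulated (0.075%) in older hens by the same limma fit, with 0 entered where a lncRNA had no value. The median difference was 1.51 among the up-regulated and -1.35 among the down-regulated lncRNAs, against 0 over all lncRNAs. The older hens lay wholly above the Y1 hens in 16 of the 29 and wholly below in 23 of the 24, and over all lncRNAs 578 (1.81%) lay wholly above and 676 (2.11%) wholly below. Changes at both ages, by size, made up 12 of the 29 (41.4%) and 19 of the 24 (79.2%), while 3 lncRNAs were called at Y3 and at Y5 each by itself. A further 13 of the 29 were driven by Y5 and 0 by Y3, 0 of the 24 were driven by either age alone, and 4 and 5 could not be assigned. These calls rest on the spread taken over all 18 libraries. In a limma fit of the 7 adult hens alone with 3 stage means, 0 lncRNAs were called in either direction, with 157 up and 136 down at an unadjusted p of at most 0.05 and a fold of at least 2. Up-regulated lncRNAs numbered 11 and 13 without Y1 hens 1 and 2, and 122, 57, 56 and 61 without Y3 hens a and b and Y5 hens a and b; down-regulated ones numbered 89 without Y1 hen 3 and 48 without Y3 hen a. Changes at both ages, 31 in all, numbered 86 without Y1 hen 3 and 93 without Y3 hen a.

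By itself, Y5 had 140 lncRNAs up-regulated (0.437%) and 42 down-regulated (0.131%) against Y1, and Y3 had 15 (0.0469%) and 9 (0.0281%). Y5 minus Y3 gave 106 higher (0.331%) and 69 lower (0.216%). As with mRNAs, the Y5 calls against Y1 outnumbered those of Y3, and the same Y1 hens enter both. The gap was smaller at an unadjusted limma p of at most 0.05 with a fold of at least 2. Y5 then had 425 lncRNAs up and 328 down, and Y3 had 352 and 190. Of the 182 lncRNAs called at Y5, 42 (23.1%) were called for the 2 ages together, and of the 24 called at Y3, 8 (33.3%) were. Among the 29 up-regulated lncRNAs, both Y5 hens were above all Y1 hens in all 29, Y3 hen a in 21 and Y3 hen b in 16. These hens entered the calls as well, so the counts are largely set by that choice. Over the 140 lncRNAs up-regulated at Y5, Y3 hen b was nearer to Y5 than to Y1 in 26 (18.6%) and Y3 hen a in 11 (7.86%), and over the 42 down-regulated in 17 and 18. The median place of both Y3 hens over the 140 was 0, that of the Y1 mean. Among lncRNAs not called at Y5 whose Y5 and Y1 means differed, these shares were 48.6% and 47.2%. The Y1 and Y5 hens chose the called lncRNAs, so these places are partly set by the choice.

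TU166262 had the largest rise among lncRNAs changed at both ages, with 4.65 and 2.22 in Y3 hens and 7.35 and 7.52 in Y5 hens, against 1.46, 2.03 and 1.44 in Y1 hens. All older hens were above the Y1 hens, Y3 hen b by little, and the Y5 hens stood well apart. The difference was 3.79 ± 0.45 (SE; limma adjusted p = 0.0015), it was kept in all 7 leave-outs, and Y5 minus Y3 was 4.0 ± 0.59 (SE; limma adjusted p = 0.0017). Its neighbour in the numbering of the study, TU166263, was driven by Y5, with 0.79 and 0 in Y3 hens and 4.69 and 5.28 in Y5 hens, and was listed without a value in all 3 Y1 hens. TU146993, also driven by Y5, had 3.84 and 3.28 in Y5 hens and no value in the Y3 and Y1 hens. For these 2 lncRNAs no fold is given, since the Y1 hens are listed at 0. Both calls (limma adjusted p = 0.000552 and 0.000314) were kept in all 7 leave-outs. At E12, E16 and E20 both also had stage means of 0. Their spread in the main fit therefore rests largely on zeros, which stay in each leave-out. With the 7 adult hens alone and 3 stage means, limma adjusted p was 0.382 for TU166262, 0.15 for TU166263 and 0.149 for TU146993.

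The other rises named showed no called difference between Y5 and Y3. TU61228 had 2.99 and 2.77 in Y3 hens and 2.60 and 2.94 in Y5 hens, against 0.41, 1.33 and 0.43 in Y1 hens. The older hens were close together, at 2.82 ± 0.176 (SD, n = 4), and clear of the Y1 hens, at 0.723 ± 0.529 (SD, n = 3). The difference was 2.1 ± 0.43 (SE; limma adjusted p = 0.0473), lost without any single Y1 hen or Y5 hen b with limma adjusted p of 0.0567 to 0.167. TU159516 had 1.97 and 3.60 in Y3 hens and 3.91 and 3.78 in Y5 hens, against 0.53, 0.55 and 1.41 in Y1 hens, TU64417 had 1.67, 3.35, 2.06 and 1.91 in the same older hens, against 0, 0 and 1.07, and TU39360 had 1.67, 2.23, 1.70 and 2.89, against 0.67, 0.35 and 0. In each of these 3 the older hens stayed above the Y1 hens, with differences of 2.48, 1.89 and 1.78 (limma adjusted p 0.0276 to 0.0367). TU159516 lost its call without Y1 hen 1 or 2 or Y3 hen b, TU64417 without Y1 hen 1 or 2, and TU39360 without any single Y1 hen, with limma adjusted p between 0.0569 and 0.143.

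Of the 24 down-regulated lncRNAs, 6 were listed without a value in all 4 older hens. TU81525 was among them, with 3.57, 4.15 and 3.19 in Y1 hens. It had a value in earlier life as well, with stage means of 2.42 at E12, 3.77 at E16 and 3.74 at D100 and a mean close to 0 at E20. TU81213 had 3.52, 1.91 and 3.15 in Y1 hens, no value in the older hens and none at E12, E16, E20 or D100, so it was seen at Y1 alone among the stages analysed. No fold is given for these 2, whose calls (limma adjusted p = 0.000738 and 0.000314) were kept in all 7 leave-outs. In a limma fit of the 7 adult hens alone with 3 stage means, the adjusted p was 0.0852 for TU81525 and 0.323 for TU81213. For TU81213 the spread in the main fit rests largely on the zeros entered at the other stages, which stay in each leave-out. From a missing value, a low level and a transcript that was not assembled cannot be told apart.

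TU55650 was present in all hens, with 2.06 and 2.41 in Y3 hens and 1.85 and 0.85 in Y5 hens, against 5.09, 5.02 and 5.43 in Y1 hens. The Y1 hens lay close together and far above the older hens. The difference was -3.39 ± 0.64 (SE; limma adjusted p = 0.0294). TU159136 had 1.19 and 2.98 in Y3 hens and 1.55 and 1.05 in Y5 hens, against 3.75, 3.59 and 3.89 in Y1 hens, and TU159213 had 0.07, 1.33, 0 and 0.48 in the same older hens, against 1.99, 2.60 and 2.52. Y3 hen b came nearest to the Y1 hens in both. The differences were -2.05 and -1.90 (limma adjusted p = 0.0358 and 0.0465). All 3 lost their call without any single Y1 hen, and TU159213 also without Y3 hen a or Y5 hen a, with limma adjusted p between 0.0521 and 0.174.

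**Figure D5:**
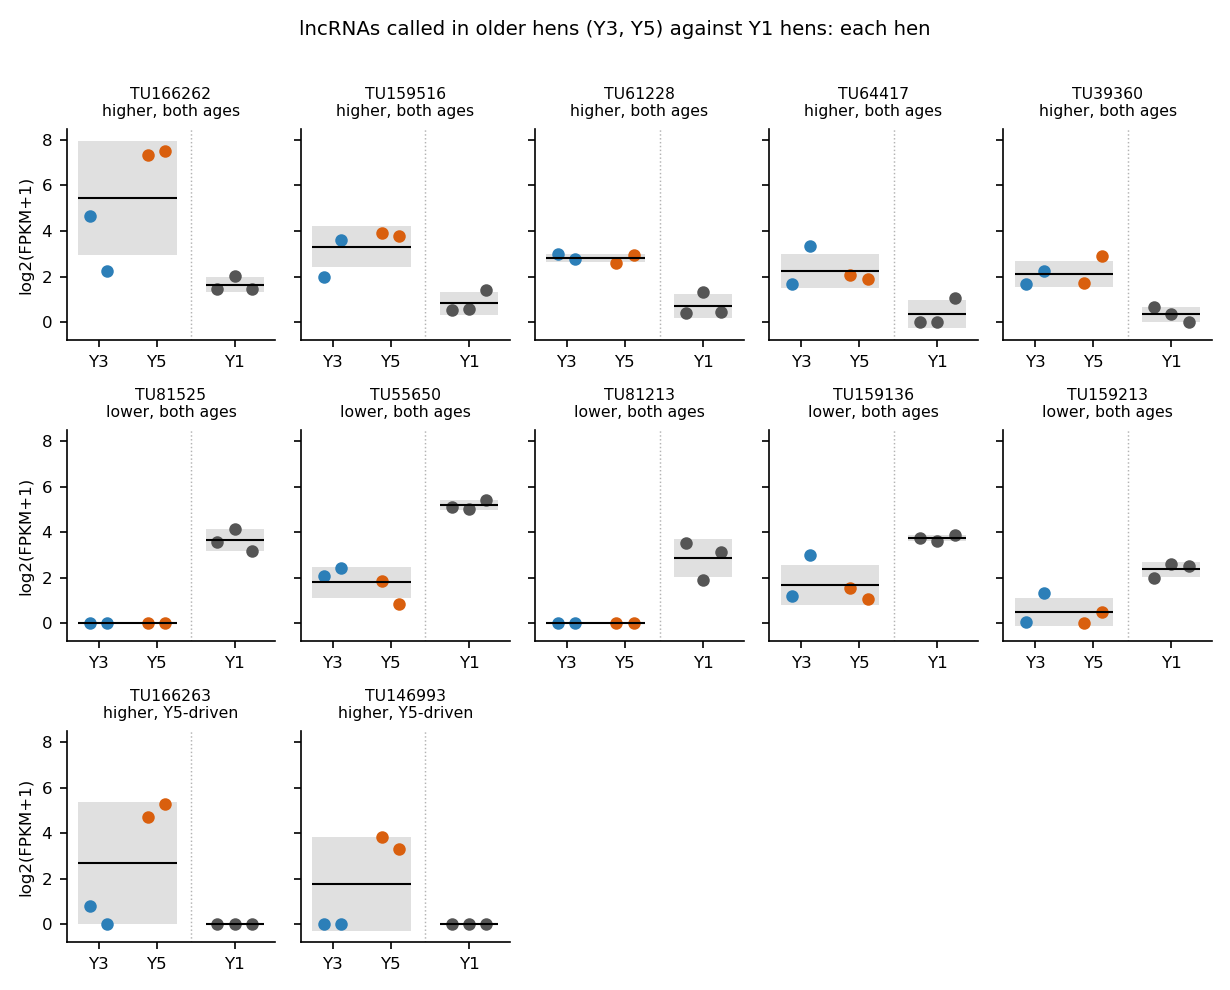
Each panel shows log2(FPKM+1) of a lncRNA in the 2 Y3 hens (a, then b), the 2 Y5 hens (a, then b) and Y1 hens 1 to 3, with a line and a band for the mean and SD of each group; a lncRNA without a value is drawn at 0. TU81525 and TU81213 are at 0 in all 4 older hens, and TU146993 has 3.84 and 3.28 in the Y5 hens alone.

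The down-regulated lncRNAs had their median at 0.12 at Y3 and 0.07 at Y5, against 1.63 at Y1, and their earlier medians were 0.12 at E12, 0.14 at E16, 0.13 at E20 and 0.22 at D100. In 23 of the 24, Y1 was above all 4 earlier stage means, which held for 21.7% of all lncRNAs tested. The up-regulated lncRNAs had medians of 0.78 at Y3 and 2.31 at Y5, against 0.13 at Y1, and of 0.03, 0, 0.03 and 0.12 at the 4 earlier stages, and in all 29 the older mean was above every earlier stage mean, which held for 24.8% of all lncRNAs tested. Members chosen for a high Y1 or a high older level reach such counts partly by that choice, and nothing is read from them.

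Presence and absence were counted as well, without a test. Such counts depend on how many lncRNAs had a value in each hen. These ranged from 12618 in Y1 hen 3 to 19227 in Y1 hen 1, with 13837 in Y3 hen a against 17315 and 16590 in Y5 hens. Of 39907 lncRNAs, 79 (0.198%) had a value in all 4 older hens and none in Y1 hens, and 109 (0.273%) had a value in all 3 Y1 hens and none in older hens. A value in both Y5 hens with none in Y3 and Y1 hens was found for 486 (1.22%), and a value in both Y3 hens with none in Y5 and Y1 hens for 177 (0.444%). In the same order, 2, 6, 4 and 0 lncRNAs of these 4 sets were called in older hens. Most of these were weakly expressed: the median level where present was between 0.427 and 0.527 in the 4 sets, and 7, 10, 57 and 15 of them had a mean of at least 1. Only 6475 (16.2%) had a value in all 7 hens.

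Of the 10 lncRNAs that the study had chosen for qPCR, 0 were called in older hens by limma, and 3 had an unadjusted p of at most 0.05. Over all lncRNAs tested, 0.166% were called in either direction and 8.58% had such a p. TU167089 had the largest difference, with 4.54 and 1.79 in Y3 hens and 2.43 and 0.78 in Y5 hens, against 3.80, 4.07 and 4.72 in Y1 hens. Y3 hen a lay within the Y1 range and the other 3 older hens below it, and the difference was -1.81 ± 0.61 (SE; limma adjusted p = 0.319). TU178751 had the largest difference upward, with 3.76 and 5.76 in Y3 hens and 5.77 and 6.18 in Y5 hens, against 4.84, 4.41 and 4.23 in Y1 hens. Here Y3 hen a lay below the Y1 hens and the other 3 older hens above them, and the difference was 0.88 ± 0.44 (SE; limma adjusted p = 0.623). TU50759 was below Y1 in every older hen, by 0.67 on average (limma adjusted p = 0.672). The primers of TU167089 and TU178751, from the supplement of the study, are shown because the tables hold no sequence or position of a lncRNA and these letters are what ties the identifiers to a transcript.
TU167089 forward primer: cgacagcctcattcgtccg
TU167089 reverse primer: cggatccgacaccttcctct
TU178751 forward primer: gcccactgcagaggtttagt
TU178751 reverse primer: atgggtgtctgtgccatgtt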

How the data were processed

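Log2(FPKM+1) values of 18 of 21 cerebrum libraries, each from 1 bird, were used; 3 further value columns in each table are not named by stage and were left out. The authors aligned reads with HISAT2 to Gallus_gallus-5.0, assembled transcripts with StringTie 1.3.3, computed FPKM with StringTie or Cufflinks 2.2.1, kept mRNAs above an FPKM minimum and deposited the log2 values. Tool versions come from the submitters' processing notes. Depth cannot be read from such values, so their counting error is unknown, and fold changes at low levels come out smaller on this scale.

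Every mRNA, and each lncRNA with values in at least 2 libraries, was fitted in R 4.3.3 with limma 3.58.1 (7 stage means, variance trend, pseudocount 1), and the mean of Y3 and Y5 was set against Y1. The limma p-values measure the spread between birds of the same stage, taken over all 18 libraries, embryos and D100 birds included. Exact permutation tests, descriptions and figures were made in Python 3.11.15 with scipy 1.17.1 and matplotlib 3.10.9. On simulated data for this comparison, mRNA changes of 2 on the log2 scale were recovered in 94% of 50 features when made at both ages and in 36% of 50 when made at Y5 only (14558 mRNAs), and lncRNA changes of that size in 72% and 26% (32013 lncRNAs). A change of 2 at Y5 only averages over both ages to the threshold of 1 itself, so many such changes miss it by construction. Changes of 4 at Y5 only were recovered in 88% of 50 mRNAs and 78% of 50 lncRNAs. Changes were made only in features with a mean level of at least 1, while the median lncRNA level at Y1 was 0.16. The simulated noise was normal, with the same spread at all stages of a feature. Recovery of weakly expressed lncRNAs was not tested.

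Named mRNAs are the 2 largest rises and falls among called mRNAs whose hens do not overlap and the 2 largest in each direction driven by a single age. The rule had asked for more names and for gene lists, and was narrowed because no symbols were matched. Named lncRNAs are the 5 largest rises and falls with a value in every hen of the higher group and no overlap, the 2 largest driven by Y5, and those chosen for qPCR. Members and lists were chosen with earlier results of these data known. Alternatives were other corrections, a minimum mean FPKM of 1, a pseudocount of 0.1, median-ratio scaling, fits of the adult hens only, other treatment of absent lncRNA values, and leaving out each hen. A test of each age for changes at both ages, and an adult fit of lncRNAs with a value in at least 2 of the 7 hens, were added after seeing the data.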

Additional observations from a re-analysis of the deposited data

Results flagged for a closer look

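For 8 of the 21 features named as called, Y5 and Y3 differed past the threshold in their own limma test, so that the effect against Y1 was unequal at the 2 ages. Y5 minus Y3 was 7.52 for ENSGALG00000006236, 4.59 for ENSGALG00000004514, 4.0 for TU166262, 4.59 for TU166263 and 3.56 for TU146993, all higher at Y5. It was -1.57 for ENSGALG00000030868, which was lower at Y5. It was -1.36 for ENSGALG00000030344 and 2.21 for ENSGALG00000027959, the 2 mRNAs that stood apart at Y3. For 7 of the 8, choice by a difference between the ages was part of the naming, TU166262 being the exception.

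In 23 sets of 4 older hens (21 named features, the number of lncRNAs with a value and the mitochondrial share), a gap between an extreme hen and the rest larger than Dixon's 95% limit was found once. It was TU159516, at 1.97 in Y3 hen a against 3.60, 3.78 and 3.91 in the other older hens. Chance gives such a gap in about 1 of 20 sets.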

How the results depend on the processing

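With Bonferroni adjustment the counts were 6 mRNAs higher, 0 lower and 3 changed at both ages, and 5, 3 and 4 lncRNAs; at an unadjusted p they were 239, 217 and 194 mRNAs and 198, 189 and 188 lncRNAs. The 7 adult hens alone, with 3 stage means, gave 91 mRNAs lower and 0 lncRNAs higher, lower or at both ages. As 2 groups they gave 10 mRNAs higher and 25 lower and 0 lncRNAs in each direction (120 and 146 at an unadjusted p). With Y3 and Y5 pooled, there is no count for both ages, and any difference between Y3 and Y5 enters the spread. The cause of these changes in the counts was not tested. Of the 72 and 56 called mRNAs, 49 and 41 stayed called with 3 stage means and 4 and 16 with 2 groups. A pseudocount of 0.1 gave 15 lncRNAs lower, and with it 39 of the 72 and 39 of the 56 called mRNAs stayed called, as did 8 of the 29 and 7 of the 24 called lncRNAs. Absent lncRNA values left missing gave 3 higher, 3 lower and 5 at both ages, and a value in at least 2 adult hens gave 2, 3 and 5. Of the 29 and 24 called lncRNAs, 1 and 2 stayed called with values left missing. In the adult fit with that filter, 0 and 2 did. Leaving out a hen gave 12 to 142 mRNAs higher, 0 to 92 lower and 6 to 148 at both ages, and 11 to 122, 21 to 89 and 21 to 93 lncRNAs. The remaining alternatives moved no count by over 1.5 times. Among the 21 named features, 188 alternative values kept the call, 138 lost it and 0 turned direction. This tally is partly set in advance. The unadjusted p can lose no call, and neither it nor Bonferroni adjustment can turn a direction. No paired analysis was possible because hens of different ages were different birds. With 2 birds at each older age and unknown read counts per feature, a change seen at a single age cannot be told apart from that of its 2 birds.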
